A study of Homo sapiens with 12 samples.

Results

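NRF2 (gene NFE2L2), its repressor KEAP1 and 7 of the antioxidant genes that NRF2 is known to drive, NQO1, HMOX1, GCLC, GCLM, TXNRD1, TXN and SRXN1, were followed in HepG2, an established human cell line that grew from a liver tumour, after toosendanin, a triterpenoid of Melia toosendan known for liver toxicity, and in cells labelled as control. The 9 members were chosen by their gene names, and all 9 were present among the 28265 genes of the expression table and, with 29 of 46178 regions, in the m6A table. The study held 12 libraries, 3 of RNA pulled down with an antibody against N6-methyladenosine (m6A, a methyl mark within mRNA; IP) and 3 of RNA before the pull-down (input) for each condition. The labels give neither the dose nor the time of treatment nor what the control cells received, and they leave unsaid whether replicate libraries stem from different cultures. Nor do the sources used here say which libraries entered the deposited expression test. Its p-values measure only the spread between the libraries that entered it, and that spread may be technical. In bulk RNA, fewer cells carrying a transcript and less of it per cell cannot be told apart.

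NRF2 is a transcription factor that KEAP1, an adaptor of the CUL3 ubiquitin ligase, keeps at low protein levels. When oxidants or electrophiles modify cysteines of KEAP1, or when the autophagy receptor SQSTM1 binds it, NRF2 escapes degradation, pairs with a small MAF protein and binds antioxidant response elements in DNA. The activity of NRF2 is thus known to be set mostly at the protein level, which RNA sequencing does not measure. In the liver the pathway is known for the supply of glutathione and thioredoxin and for the detoxification of reactive metabolites.

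The cells carried the transcripts of their label. The 10 hepatocyte and HepG2 markers examined had mean normalized counts between 5546 and 411979 in the authors' deposited table. By its adjusted p under 0.05, 4 of them were higher and 1 lower after toosendanin, with 0 called at 2-fold or more. That is 50% called, against 48% of all genes in the upper 50% of means by an adjustment within that set. Of markers of other cells, COL1A2, DCN and LUM of fibroblasts, KDR and EMCN of endothelium, and PTPRC, CD3E and MS4A1 of immune cells were listed at 0, and 8 others, among them PDGFRB, VWF, PECAM1 and CD14, had means between 0.830 and 36.1 in the authors' deposited table. LYZ and CD68 stood far above these, at 49191 and 1426. Of these markers of other cells 3 changed in the authors' deposited table: CD68, a lysosomal membrane protein abundant in macrophages, had a log2 fold change of 1.41 ± 0.09 (values after ± are standard errors; DESeq2 adjusted p = 1.81e-58), LYZ fell by 0.37 ± 0.06 and PDGFRB, with a mean of 36.1, fell by 2.25 ± 0.87. The part of these marker changes in the results below was not tested. Over all m6A regions the control held 42316089 IP and 34131862 input counts, and the toosendanin condition 29094328 and 24253006. Depth and values per library were not analysed here.

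After toosendanin the 9 transcripts moved little. SRXN1 and TXNRD1 of the thioredoxin branch rose, KEAP1 and the glutathione gene GCLC fell, and NFE2L2, NQO1, HMOX1, GCLM and TXN did not pass the test. With DESeq2's adjusted p under 0.05 in the authors' deposited table, 4 of 9 members changed, 2 higher and 2 lower. The same rule called 31.4% of the 16552 genes with an adjusted p, 15.7% higher and 15.7% lower. All 9 members lay in the upper 50% of mean normalized count, where an adjustment within that set called 48% of genes and again 4 members. The members' share was thus near the background. None of the 9 reached a 2-fold change, and the members' median log2 fold change in the authors' deposited table was -0.04. Of the 16552 genes with an adjusted p, 7.29% were both called and changed by at least 2-fold.

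**Figure D1:**
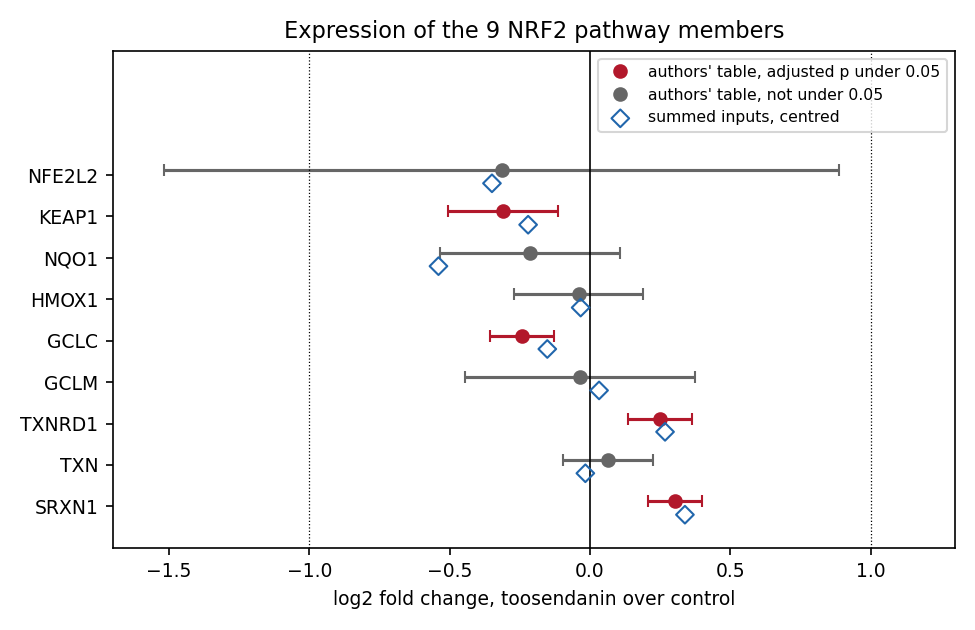
Log2 fold change (toosendanin over control) of the 9 members in the authors' deposited table, with bars for the 95% interval from the deposited standard error, and the log2 ratio of summed input counts after centring over genes (diamonds, no error). Dotted lines mark a 2-fold change. TXNRD1 and SRXN1 lie above 0, KEAP1 and GCLC below 0, and the bar of NFE2L2 reaches from -1.52 to 0.89.

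NFE2L2, the gene of the transcription factor itself, was counted 3562 times in the summed control inputs and 1997 times in those of toosendanin, over its 3 regions. Divided by the total of each column these were 104 and 82.3 counts per 1000000 (CPM). In the authors' deposited table its log2 fold change was -0.31 ± 0.61, with a mean normalized count of 1925 and a DESeq2 adjusted p of 0.775. The 95% interval of that change, from -1.52 to 0.89, holds a 2-fold fall as well as a rise, so the direction could not be read from it. The summed inputs, centred on the median over genes, gave -0.35. Among 4006 tested genes with a mean between 0.5 and 2 times its own, 99.3% had a smaller standard error, and that of NFE2L2 was 6.48 times their median of 0.0947.

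KEAP1, the sensor, was counted 2579 times in the control inputs and 1581 times in the toosendanin inputs, or 75.6 and 65.2 CPM. The authors' deposited table lists it at -0.31 ± 0.10, a 0.807-fold level, with a DESeq2 adjusted p of 0.00874 and a 95% interval from -0.51 to -0.11. Its log2 fold change was close to that of NFE2L2, but its standard error was in the middle of 4146 genes of like mean, of which 53.9% had a smaller one. The fall of KEAP1 thus passed the test, and a like value for NFE2L2 did not.

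The targets that act on quinones and haem came next. NQO1, a quinone reductase often used as a readout of NRF2, was listed at a mean normalized count of 18704 and a log2 fold change of -0.21 ± 0.16 in the authors' deposited table (DESeq2 adjusted p = 0.360). Its 4 regions held 40094 input counts in control and 19696 after toosendanin, or 1175 and 812 CPM. Centred on the median over genes, these sums gave a log2 ratio of -0.540, just outside the 95% interval of the listed change, from -0.536 to 0.108. Only 5.20% of 7947 well-counted genes differed more between the summed inputs and the listed value. The standard error of NQO1 was larger than that of 96.7% of 427 genes of like mean. HMOX1, which breaks down haem, had 394 and 275 summed input counts, or 11.5 and 11.3 CPM, and stood at -0.04 ± 0.12 in the authors' deposited table (DESeq2 adjusted p = 0.854). Its interval, from -0.27 to 0.19, leaves out a 2-fold change in either direction.

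**Figure D2:**
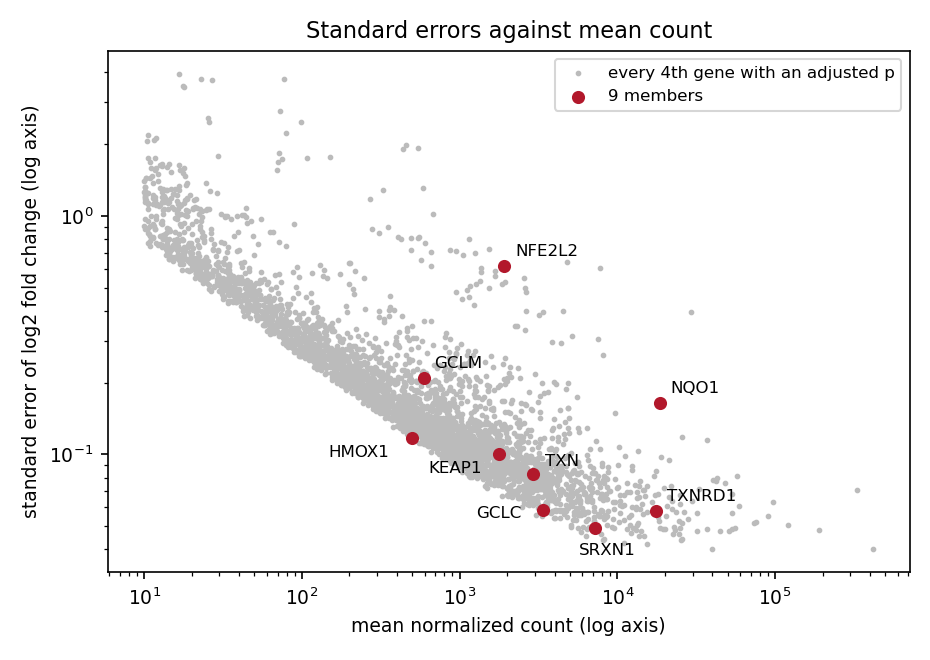
Standard error of the log2 fold change against mean normalized count, both on log axes, for the 9 members (red) and every 4th gene with an adjusted p and a mean of at least 10 (grey). NFE2L2 at 0.61 and NQO1 at 0.16 lie above most genes of their mean, while SRXN1 at 0.05 and GCLC at 0.06 lie at the lower edge.

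The 2 subunits of glutamate-cysteine ligase, the rate-limiting enzyme of glutathione synthesis, differed in what could be measured. GCLC, the catalytic subunit, had 4409 summed input counts in control and 2834 after toosendanin, or 129 and 117 CPM. It fell by 0.24 ± 0.06 on the log2 scale in the authors' deposited table, to a 0.845-fold level (DESeq2 adjusted p = 0.000225; 95% interval from -0.36 to -0.13). The summed inputs, centred on the median over genes, gave a smaller fall, -0.15. GCLM, the modifier subunit, had 141 and 103 summed input counts, or 4.13 and 4.25 CPM, over its 2 regions, while its mean normalized count of 591 was above the 498 of HMOX1. In the authors' deposited table it stood at -0.04 ± 0.21 (DESeq2 adjusted p = 0.930), and its interval, from -0.44 to 0.37, contains the whole interval of GCLC. Its standard error was larger than that of 86.6% of 4316 genes of like mean, at 1.46 times their median. Whether the 2 subunits changed differently was not tested.

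The thioredoxin branch held both increases. TXNRD1, the cytosolic reductase that recharges thioredoxin, had 16191 summed input counts in control and 13921 after toosendanin, which is 474 and 574 CPM because the toosendanin inputs were shallower. It rose by 0.25 ± 0.06 in the authors' deposited table, to a 1.19-fold level (DESeq2 adjusted p = 0.000114; 95% interval from 0.14 to 0.36). SRXN1, sulfiredoxin, which repairs overoxidised peroxiredoxins, had 7677 and 6933 summed input counts, or 225 and 286 CPM. Of the members it had the smallest adjusted p, 1.14e-08 in the authors' deposited DESeq2 table, with a log2 fold change of 0.30 ± 0.05, a 1.23-fold level and an interval from 0.21 to 0.40. TXN, thioredoxin itself, had 3859 and 2725 summed input counts, or 113 and 112 CPM. The authors' deposited table gives it 0.06 ± 0.08 (DESeq2 adjusted p = 0.632), with an interval from -0.10 to 0.23 that overlaps that of TXNRD1.

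Seen against all genes with an adjusted p, the members lay in the middle of the distribution. Their log2 fold changes in the authors' deposited table ran from percentile 25.5 for NFE2L2 to percentile 72.8 for SRXN1, with KEAP1 at 25.8, GCLC at 30.1, NQO1 at 32.3 and TXNRD1 at 69.4. The 95% intervals of 8 of 9 members lay wholly within a 2-fold change in either direction, the exception being NFE2L2. The summed inputs, which may come from the same libraries, gave log2 ratios of the same sign for all members but GCLM and TXN. GCLM stood at 0.03 and TXN at -0.02 by the summed inputs.

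The promoters of the 4 members that changed are shown because the antioxidant response element is the sequence through which NRF2 is known to act. The windows are the 250 bases before each RefSeq start site on build GRCh38.p14, written 5′ to 3′ on the strand of the gene, and capitals mark matches to the element's core, TGACNNNGC, on either strand. The reference table holds 2 windows each for TXNRD1 and KEAP1, of which the outer one of KEAP1, with no match, is left out.
TXNRD1 first start, chr12:104215529-104215778, plus strand: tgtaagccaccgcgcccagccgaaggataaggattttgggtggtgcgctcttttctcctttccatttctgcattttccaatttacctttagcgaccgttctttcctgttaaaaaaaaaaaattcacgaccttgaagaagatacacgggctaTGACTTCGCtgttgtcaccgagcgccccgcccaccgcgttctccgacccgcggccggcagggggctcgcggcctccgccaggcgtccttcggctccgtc
TXNRD1 second start, chr12:104286782-104287031, plus strand: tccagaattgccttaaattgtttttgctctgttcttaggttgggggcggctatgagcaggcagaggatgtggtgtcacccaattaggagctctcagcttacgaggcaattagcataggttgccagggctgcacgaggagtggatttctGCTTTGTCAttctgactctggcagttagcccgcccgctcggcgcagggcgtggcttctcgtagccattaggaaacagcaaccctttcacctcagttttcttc
SRXN1, chr20:653201-653450, minus strand: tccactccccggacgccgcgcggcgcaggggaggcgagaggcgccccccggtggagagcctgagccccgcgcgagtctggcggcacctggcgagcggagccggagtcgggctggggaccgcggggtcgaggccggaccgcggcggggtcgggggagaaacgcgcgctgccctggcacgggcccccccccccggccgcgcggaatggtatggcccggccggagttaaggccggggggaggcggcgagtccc
KEAP1 inner start, chr19:10502772-10503021, minus strand: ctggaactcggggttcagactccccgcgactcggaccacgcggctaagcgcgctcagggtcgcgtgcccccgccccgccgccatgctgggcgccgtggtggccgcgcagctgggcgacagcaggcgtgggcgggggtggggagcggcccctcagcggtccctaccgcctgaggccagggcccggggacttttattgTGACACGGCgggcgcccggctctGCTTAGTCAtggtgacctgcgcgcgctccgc
GCLC, chr6:53545102-53545351, minus strand: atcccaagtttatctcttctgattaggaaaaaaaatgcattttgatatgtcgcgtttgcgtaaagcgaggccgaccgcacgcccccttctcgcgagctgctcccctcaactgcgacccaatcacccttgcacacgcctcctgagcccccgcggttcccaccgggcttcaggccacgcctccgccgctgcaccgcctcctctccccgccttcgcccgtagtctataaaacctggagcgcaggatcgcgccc

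Both TXNRD1 windows hold 1 match, 99 to 91 bases before the first start as TGACTTCGC and 102 to 94 bases before the second start as GCTTTGTCA, which is the core read on the opposite strand. The KEAP1 window holds 2, TGACACGGC at 54 to 46 bases and, on the opposite strand, GCTTAGTCA at 31 to 23 bases before the start. No match stands in the windows of SRXN1 and GCLC. Of all 35116 windows of this length 10.9% hold the core, as do 4 of the 11 windows of the 8 members with an entry, those of TXNRD1, KEAP1 and GCLM. GCLM carries the same letters as KEAP1, GCTTAGTCA, at 34 to 26 bases before its start. HMOX1 had no entry. The related AP-1 site TGANTCA, which can share its first 4 letters with the core, is in 0 of the 11 windows and in 6.57% of all. A match is a description of letters, and elements farther from the start are outside these windows. A matched core went with a higher transcript for TXNRD1, a lower one for KEAP1 and no call for GCLM.

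The m6A data covered the 9 transcripts with 1 region for TXN, 2 each for HMOX1, GCLM and SRXN1, 3 each for NFE2L2 and TXNRD1, 4 for NQO1 and 6 each for KEAP1 and GCLC. Regions are numbered in the order of the authors' table, which gives no positions. Enrichment is given as the share of IP counts divided by the share of input counts, so that 1 means no enrichment over an average region. In control, 9 of 29 regions were above 1. The highest was GCLC region 1 at 1.76, from 1160 IP and 532 input counts, followed by TXNRD1 region 3 at 1.54, from 20806 and 10924. The lowest was KEAP1 region 1 at 0.366, from 147 and 324 counts. All 4 NQO1 regions, both HMOX1 regions and the TXN region were below 1, while both GCLM regions and 2 of 3 NFE2L2 regions were above it. Among regions with an FDR, GCLC region 1 stood at percentile 89.8 of enrichment and TXNRD1 region 3 at percentile 83.9.

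**Figure D3:**
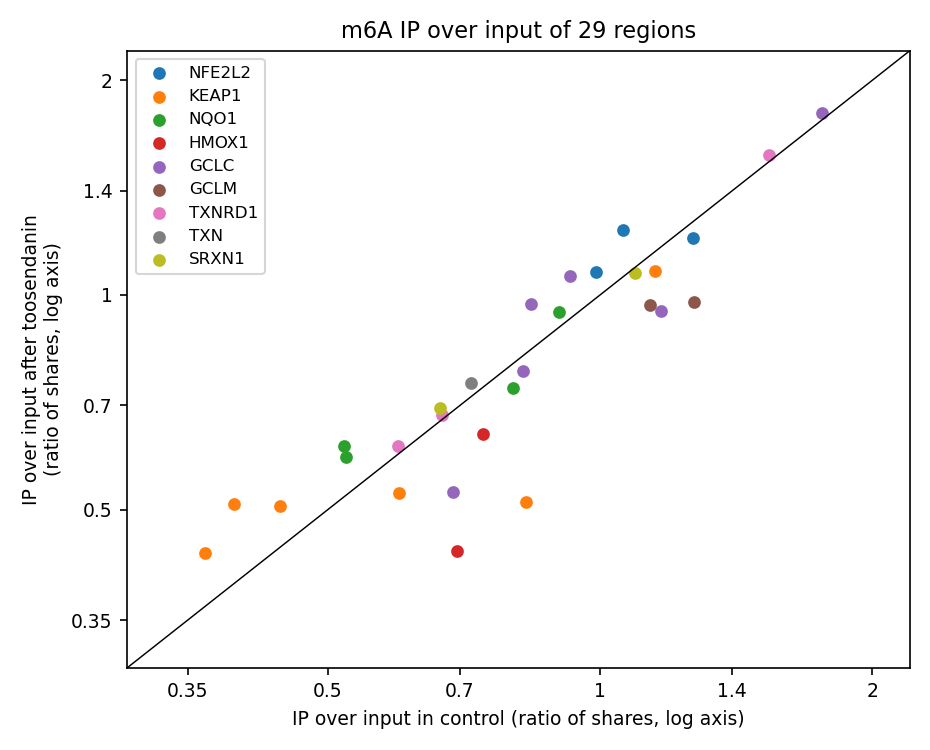
Share of IP counts over share of input counts of the 29 member regions in control (x axis) and after toosendanin (y axis), both on log axes, with 1 colour per gene and the line of equality. GCLC region 1 and TXNRD1 region 3 are highest in both conditions, at 1.76 and 1.80 and at 1.54 and 1.57, and KEAP1 region 4 and HMOX1 region 2 lie farthest below the line.

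The m6A of these transcripts differed between conditions at few regions. By the FDR of the authors' deposited table, 1 of 28 member regions with an FDR was higher and 1 lower, against 8.95% called among 24688 regions, 2.71% higher and 6.24% lower. The members' share, 7.14%, was again near this background over all regions. Regions with more counts can pass such a test more easily, and no share among regions of like count was computed. The deposited p-values hold the counting error of the summed counts and no spread between libraries, and the intervals below do the same. NQO1 region 2 was higher, with 15959 IP and 24701 input counts in control and 9185 and 12471 after toosendanin. Its enrichment went from 0.521 to 0.614, and the authors' deposited table lists a log2 fold change of 0.16 with an FDR of 5.18e-09 (95% counting interval from 0.11 to 0.21). SRXN1 region 1 was lower, with 5780 IP and 4266 input counts in control and 4741 and 3683 after toosendanin, at -0.14 with an FDR of 0.0181 in the authors' deposited table (interval from -0.23 to -0.06). Its enrichment was 1.09 in control and 1.07 after toosendanin.

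The call of SRXN1 region 1 depended on the processing. The authors' deposited log2 fold changes of the member regions differ from ratios of the summed counts by amounts from -0.09 to -0.004. Scaled to total counts, SRXN1 region 1 stood at -0.03 with an FDR of 0.787, whereas NQO1 region 2 stood at 0.24 and remained called. SRXN1 region 1 also lost its call without any rescaling, with an FDR of 0.593 once the test statistic was divided by 1.55, a factor taken from its spread over all regions, at which NQO1 region 2 remained called. Over all regions, scaling to total counts turned 669 higher and 1540 lower calls into 1816 higher and 566 lower, so signs of small m6A changes depend on the scaling. NQO1 region 2 was also not strongly enriched, at percentile 15.3 of enrichment in control.

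**Figure D4:**
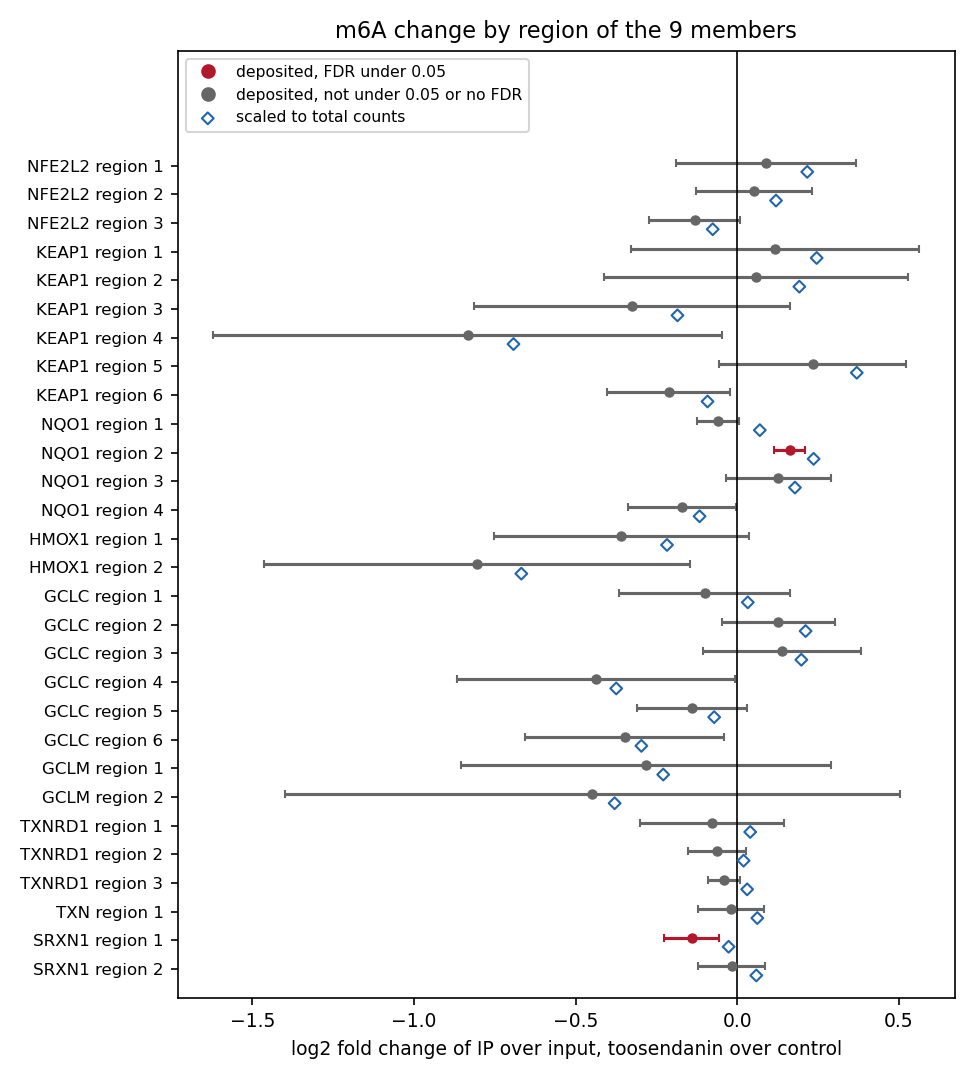
Log2 fold change of IP over input (toosendanin over control) for the 29 member regions as deposited, with bars for the 95% interval from counting error, and the value after scaling to total counts (diamonds). NQO1 region 2 and SRXN1 region 1 are the deposited calls, and the diamond of SRXN1 region 1 lies at -0.03.

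Of the 8 transcripts with more than 1 region, NFE2L2, KEAP1, NQO1 and GCLC had listed values of both signs, and HMOX1, GCLM, TXNRD1 and SRXN1 had only negative ones. Over all 29 regions 9 values were positive and 20 negative in the authors' deposited table, mostly without passing the test, and these signs hold for the deposited scaling. NQO1 regions 3 and 2 were listed at 0.13 and 0.16 and regions 1 and 4 at -0.06 and -0.17 in the authors' deposited table, with FDRs of 0.377 for region 3, 0.287 for region 1 and 0.222 for region 4. The counting intervals of regions 2 and 4 did not overlap, but whether they differ beyond the spread between libraries was not tested. Scaled to total counts, region 1 stood at 0.07 and region 4 at -0.12. KEAP1 ranged from -0.83 for region 4, counted only 75, 73, 32 and 52 times in control IP, control input, toosendanin IP and toosendanin input, to 0.23 for region 5 in the authors' deposited table, and none of its 6 regions had an FDR under 0.05. GCLC ranged from -0.44 to 0.14 over 6 regions in the authors' deposited table with 0 called. For NFE2L2 the same authors' deposited table gives 0.09, 0.05 and -0.13 for regions 1 to 3, with FDRs of 0.777, 0.801 and 0.274. TXNRD1 region 3, with 20806 IP counts in control the deepest IP count of the 29 regions, was listed by the authors' deposited table at -0.04 with an FDR of 0.349 and had an interval from -0.09 to 0.01. Scaled to total counts it stood at 0.03, so the sign of this value depends on the scaling. HMOX1 region 2 was listed at -0.81 from 99, 115, 43 and 82 counts, with no FDR given in the authors' deposited table, and the intervals of the 2 thinly counted GCLM regions ran from -0.86 to 0.29 and from -1.40 to 0.50.

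Around the members, more genes of the same pathway and of related antioxidant enzymes were called higher than lower. Among the genes counted here are 4 superoxide and peroxide enzymes outside the NRF2 core. Of 86 such genes in 6 lists, 81 had an adjusted p, of which the authors' deposited table has 30 that rose and 13 that fell, with a median log2 fold change of 0.10 against -0.000226 over all genes. Well-counted genes are called more often: within the upper 50% of means, 28 of 73 pathway genes were higher and 13 lower, against 23.6% and 24.4% of all genes there. The lists and the members share no gene, but the lists were written with earlier results of these data known.

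Regulators and partners of NRF2 numbered 20, and 8 of them rose and 3 fell by the authors' deposited table (median 0.10). That is 40% and 15%, against 23.6% and 24.4% of all genes in the upper 50% of means, by an adjustment within that set. The list shares here and below instead use the deposited adjustment and every listed gene with an adjusted p. By that rule 15.7% of all genes with an adjusted p were higher and 15.7% lower. MAFG, SQSTM1 and MAFK had the largest rises. Of the small MAF proteins, with which NRF2 pairs on DNA, MAFG stood at 1.58 ± 0.23 and MAFK at 1.35 ± 0.13, but MAFF at -0.10 ± 0.37 (DESeq2 adjusted p = 0.885), in the authors' deposited table. SQSTM1, the autophagy receptor that binds KEAP1, rose by 1.46 ± 0.05 in the authors' deposited table. The chromatin remodeller CHD6 stood at -0.51 ± 0.05 and the related factor NFE2L3 at -0.79 ± 0.13 in the authors' deposited table. CUL3, the ligase that KEAP1 recruits, was listed at -0.16 ± 0.07 (DESeq2 adjusted p = 0.0884), and BACH1, a repressor at the same DNA elements, at -0.09 ± 0.24 (0.837) in the authors' deposited table.

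Glutathione genes had 4 higher and 2 lower of 14 tested in the authors' deposited table (median 0.02), with CHAC1 and GSTP1 listed at 0. That is 28.6% higher and 14.3% lower, and the 42.9% called in all was near the 48% among well-counted genes. SLC7A11, which imports cystine for glutathione, stood at -0.99 ± 0.11 and the peroxidase GPX2 at -0.49 ± 0.06 in the authors' deposited table. GPX4, which reduces lipid peroxides, stood at 0.38 ± 0.05, the membrane glutathione transferase MGST1 at 0.65 ± 0.09 and the glutathione-cleaving enzyme GGT1 at 0.59 ± 0.10 in the authors' deposited table. Glutathione synthetase, GSS, which acts after GCLC and GCLM, was listed at -0.14 ± 0.07 (DESeq2 adjusted p = 0.132) in the authors' deposited table.

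Thioredoxin and peroxiredoxin genes numbered 14, and 4 of them rose and 3 fell by the authors' deposited table. These shares, 28.6% and 21.4%, were near those of well-counted genes, 23.6% and 24.4%. The 4 higher ones were among the 6 peroxiredoxins, peroxidases that are mostly recharged by thioredoxin. PRDX1 stood at 0.30 ± 0.06, PRDX3 at 0.57 ± 0.14, PRDX5 at 0.39 ± 0.08 and PRDX6 at 0.21 ± 0.08 in the authors' deposited table. PRDX2 at 0.16 ± 0.10 and PRDX4 at 0.05 ± 0.10 did not pass (DESeq2 adjusted p = 0.222 and 0.797) in the authors' deposited table. TXNIP, an inhibitor of thioredoxin, fell by 1.11 ± 0.26, the stress-induced sestrin SESN1 by 0.62 ± 0.12 and its relative SESN3 by 0.66 ± 0.27 in the authors' deposited table. TXN2 and TXNRD2, the mitochondrial counterparts of TXN and TXNRD1, stood at -0.03 ± 0.08 and 0.06 ± 0.14 and did not pass (DESeq2 adjusted p = 0.870 and 0.824) in the authors' deposited table.

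**Figure D5:**
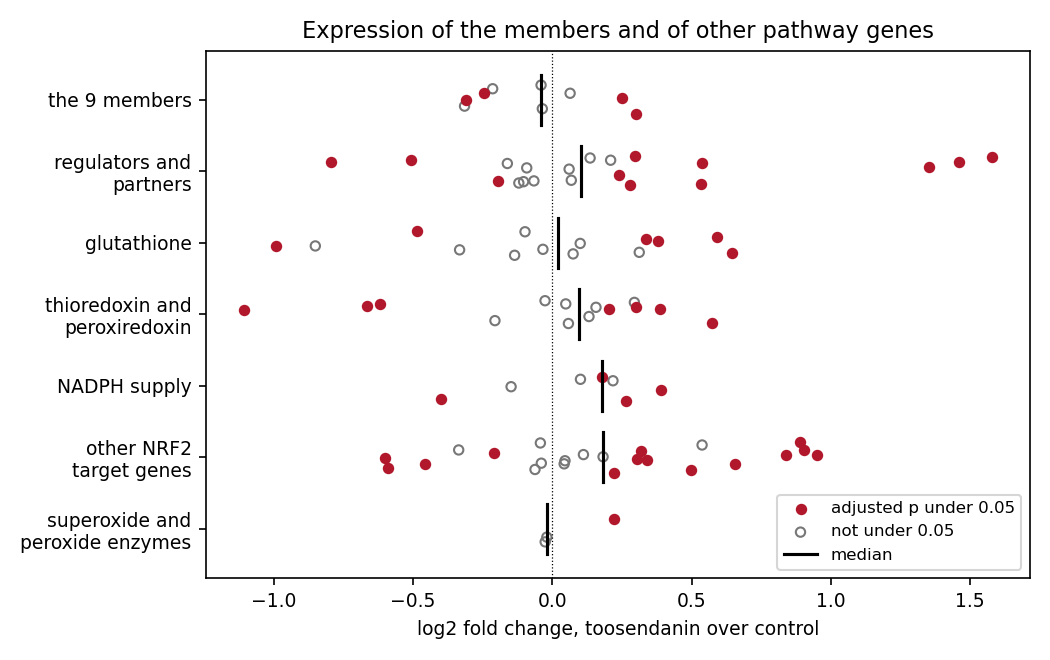
Log2 fold change (toosendanin over control) in the authors' deposited table for the 9 members and 6 lists of pathway genes with an adjusted p, 1 point per gene with vertical scatter for legibility, filled where the adjusted p is under 0.05, and a bar at the median of each list. The members lie between -0.31 and 0.30, inside the range of the other lists other than the 3 superoxide and peroxide enzymes. SQSTM1, MAFG and MAFK lie beyond 1, and TXNIP lies at -1.11.

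Genes that supply NADPH had 3 higher and 1 lower of 7 tested by the authors' deposited table (median 0.18), with ME1 listed at 0. These few genes make 42.9% and 14.3%, against 23.6% and 24.4% of well-counted genes. IDH1, the cytosolic isocitrate dehydrogenase, stood at 0.39 ± 0.06, the pentose phosphate enzymes TALDO1 at 0.26 ± 0.06, PGD at 0.18 ± 0.05 and RPIA at -0.40 ± 0.12 in the authors' deposited table. Other known NRF2 targets had 10 higher and 4 lower of 23 tested, with a median of 0.18 in the authors' deposited table. Their shares were 43.5% and 17.4%, against the same 23.6% and 24.4%. The ferritin chains FTL at 0.95 ± 0.08 and FTH1 at 0.50 ± 0.05 and the carboxylesterase CES1 at 0.84 ± 0.09 were among the higher ones in the authors' deposited table. Besides AKR1C3, the lower ones there were TRIM16 at -0.59 ± 0.12, PIR at -0.60 ± 0.18 and UGDH at -0.21 ± 0.07. AKR1C1 was listed at 0.90 ± 0.05, AKR1C2 at -0.04 ± 0.04 and AKR1C3 at -0.46 ± 0.05 in the authors' deposited table. These aldo-keto reductases are closely related in sequence, and both ferritin genes have processed pseudogenes, so their values are uncertain where the counting could split reads. Of the 3 superoxide and peroxide enzymes with an adjusted p, CAT stood at 0.22 ± 0.09 (DESeq2 adjusted p = 0.0358) and SOD1 and SOD2 at -0.03 ± 0.06 and -0.02 ± 0.07 in the authors' deposited table.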

How the data were processed

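RNA of toosendanin-treated and control HepG2 cells was measured as m6A IP and input in 12 libraries, 3 per group, made with a stranded mRNA kit with molecular identifiers, per the labels' protocols. The submitters' processing notes name HISAT2, StringTie and DESeq. Build, annotation, counting options and m6A caller: not given in the sources used here. The authors deposited, per the file headers, a DESeq2 result (mean normalized count, log2 fold change with standard error, a Wald statistic as score, p-value and adjusted p) and m6A counts summed per condition with a log2 fold change, p-value and FDR. Calls are the authors' at 0.05, and nothing was refitted. A positive change means higher after toosendanin: across 7947 genes, the log2 ratio of summed inputs (median of -0.49, subtracted) and the deposited expression change had a Pearson r of 0.94, though genes are not independent replicates. In 99.5% of regions the deposited m6A p-value matched, within 1%, the Poisson error of the 4 summed counts, from which intervals were computed. The recomputed test was run on simulated Poisson counts without spread between libraries, so that run cannot show how it handles such spread. Intervals are normal, at 95%. The standard errors were ranked among genes of like mean, a comparison added after the data were seen. Promoters came from RefSeq (GRCh38.p14), with entries for 8 of 9 members. The members, lists and tests were chosen with earlier results of these data known. Named genes are all members and, per list, up to 5 called genes with the smallest adjusted p. MAFF, CUL3, BACH1, GSS, PRDX2, PRDX4, PRDX6, SESN3, TXN2, TXNRD2, AKR1C2, TRIM16, PIR, UGDH, SOD1 and SOD2 were chosen after their values were seen. So were the genes listed at 0, the markers of other cells and m6A regions that were neither called nor the most enriched of their gene. Alternatives were other thresholds and adjustments, fold limits, summed inputs and, for m6A, other scalings, a widened statistic, a count minimum and sums over regions. Python 3.11.15, numpy 2.4.6, pandas 2.3.3, scipy 1.17.1 and matplotlib 3.10.9 were used.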

Additional observations from a re-analysis of the deposited data

How the results depend on the processing

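The 4 expression calls among the members held at an adjusted p under 0.01, with an adjustment over all genes with a p-value and within the upper 50% of means. With a change of at least 2-fold required, 0 members and 4 pathway genes (3 higher, 1 lower) remained, and 1207 of all genes. Of the 2 m6A calls, 1 (NQO1 region 2) remained at an FDR under 0.01, after centring on the median over regions, after scaling to total counts and with the statistic divided by 1.55, while 0 remained at 1.5-fold. SRXN1 region 1 stood at -0.08 after centring. Over all regions, 2209 calls became 1229 at an FDR under 0.01, 363 at 1.5-fold and 388 with the divided statistic, and the share of calls that were higher went from 30.3% to 62.2% after centring and 76.2% after scaling to total counts. With at least 50 summed input counts or with labels that hold further genes, 2 member regions were called. The summed inputs moved NQO1 to -0.54 and GCLC to -0.15, by more than 1 standard error. Summed over its regions, the m6A change of NQO1 was 0.07. The cause of these differences was not tested. No paired analysis was possible because the deposited columns hold no values per replicate, and leaving out single replicates was not run for the same reason. Summed control inputs were lowest for GCLM and HMOX1, at 141 and 394 counts, and the counting intervals of their m6A regions were wide.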

Other observations

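The m6A table also covers the genes around the members. Of 203 regions with an FDR in the 6 pathway lists, 15 were higher and 23 lower in the authors' deposited table (18.7% called, against 8.95% of all regions), in 25 genes. These p-values hold counting error only, so regions with more counts can pass more easily. The share among regions of like count was not computed. Of the 33 regions of the hepatocyte and HepG2 markers with an FDR, 54.5% were called. Scaled to total counts, 30 of the 203 pathway regions were higher and 8 lower. Regulators and partners held 2 higher and 11 lower calls of 72 regions, which that scaling made 4 and 4.

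Single transcripts held regions that moved apart. FTH1 region 1 stood at -0.35 and region 2 at 0.21 in the authors' deposited table, and at -0.23 and 0.31 after scaling to total counts, all with FDRs under the threshold. SQSTM1 regions 1 and 2 stood at 0.41 and 0.11 and region 3 at -0.73 in the authors' deposited table, with the same signs after that scaling. MAFK region 7 had the largest change of these calls, with 489 IP and 204 input counts in control and 157 and 141 after toosendanin. It stood at -1.15 in the authors' deposited table, and at -1.06 after scaling to total counts. The transcript as a whole rose, but not evenly over these regions: the input counts of regions 1 to 4, which were not called, went from 276, 117, 61 and 187 to 524, 232, 123 and 377, against 204 to 141 for region 7. Regions 5 and 6, with no FDR, went from 76 and 39 to 81 and 49. These sums are not scaled, and all inputs together held 34131862 counts in control and 24253006 after toosendanin. The lower sum of region 7 therefore cannot be read as a fall. The counts in this paragraph are sums over libraries, so the spread between libraries was not analysed here, and FTH1 is uncertain because of its pseudogenes.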
